A study of Mus musculus with 6 samples.

Results

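Marker genes of the loop of Henle, the distal tubule and the collecting duct were examined in isolated glomeruli of 3 mice without dendrin and of 3 of their littermates as controls. The list held 38 genes, chosen as known markers of these segments. A gene was measured where at least 1 probe set of the array is annotated to it alone, which held for 35 of the 38, with 58 probe sets in all, out of 18194 genes on the array. Trpv5, Klhl3 and Atp6v1g3 were not analysed here. For each gene, the values are those of its brightest probe set by the mean of the 6 arrays.

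The knockout mice lacked dendrin in all cells, since its whole coding sequence had been replaced by a cassette with eGFP and a neomycin resistance gene. The controls were their wild type littermates. All mice were 13 months old, and the labels give the background as 129S6SvEv/C57BL6 for both groups. The methods of the study give that mixed strain for the embryonic stem cells. They state that the mice had been backcrossed onto C57BL6 for several generations. Each mouse had its own Affymetrix array, and the values are log2 intensities after GCRMA, which subtracts background, equalizes the arrays and summarizes each set of probes as 1 value. Values under log2 4 lie near the floor of the array, which is at 2.20, and are called dim here.

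The tubule leads away from the glomerulus, and none of these segments is part of the filter itself. The thick ascending limb of the loop reabsorbs salt through the furosemide-sensitive cotransporter and secretes uromodulin. The distal convoluted and connecting tubules take up salt through the thiazide-sensitive cotransporter and handle calcium and magnesium, whereas principal cells of the collecting duct take up sodium and water under aldosterone and vasopressin, and intercalated cells secrete acid or base. The ascending limb also touches its own glomerulus at the macula densa. The values are those of a whole glomerular preparation, in which fewer cells of a type and less RNA per cell cannot be told apart.

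The arrays carried the markers of glomeruli. Podocyte genes, 7 measured, lay within -0.34 to 0.38 (log2) of the mean of the other arrays on every array, and Ddn, the gene of dendrin, was at 3.80 ± 0.0074 in knockout and 12.45 ± 0.32 (log2, SD, n = 3) in control glomeruli. Control 2 stood apart from the other 5 mice. On its array, 95 of 19619 probe sets that were not dim exceeded the highest of the other 5 arrays by over 1 (log2), against 2 to 16 on each other array. The comparison of the genotypes is therefore given with and without control 2.

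The upstream sequences of 4 genes of the list are shown because these genes were among those that rose together on that array, each in its own segment or role. Umod encodes uromodulin, Kcnj16 a basolateral potassium channel subunit, Slc12a3 the thiazide-sensitive cotransporter and Wnk4 a kinase that regulates it. Sequences are from RefSeq, build GRCm38.p6, 250 bases that end at the annotated start, 5′ to 3′ on the strand of the gene. For Kcnj16, which has several annotated starts, the start whose promoter holds all 3 kinds of match is shown. The capitals mark matches, on either strand, to GTTAAT (core of the HNF1 motif of kidney epithelium), GCCNNNGGC (AP-2) or AAGGTCA (estrogen-related receptors).
Umod, chr7:119479263-119479512, minus strand: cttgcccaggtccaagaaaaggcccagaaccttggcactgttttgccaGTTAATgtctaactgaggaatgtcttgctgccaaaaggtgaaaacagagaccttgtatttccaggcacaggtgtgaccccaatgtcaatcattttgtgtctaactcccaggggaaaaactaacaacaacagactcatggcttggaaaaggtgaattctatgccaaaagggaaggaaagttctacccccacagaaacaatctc
Kcnj16, chr11:110967783-110968032, plus strand: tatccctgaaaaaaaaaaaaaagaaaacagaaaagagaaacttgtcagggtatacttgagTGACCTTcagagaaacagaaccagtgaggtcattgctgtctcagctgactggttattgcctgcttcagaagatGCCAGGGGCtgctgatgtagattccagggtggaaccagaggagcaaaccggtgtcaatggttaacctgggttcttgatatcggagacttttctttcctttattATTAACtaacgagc
Slc12a3, chr8:94328958-94329207, plus strand: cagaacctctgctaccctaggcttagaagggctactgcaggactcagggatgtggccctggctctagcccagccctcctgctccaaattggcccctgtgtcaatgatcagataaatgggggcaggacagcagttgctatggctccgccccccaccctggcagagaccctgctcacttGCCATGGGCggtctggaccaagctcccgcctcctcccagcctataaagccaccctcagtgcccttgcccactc
Wnk4, chr11:101260317-101260566, plus strand: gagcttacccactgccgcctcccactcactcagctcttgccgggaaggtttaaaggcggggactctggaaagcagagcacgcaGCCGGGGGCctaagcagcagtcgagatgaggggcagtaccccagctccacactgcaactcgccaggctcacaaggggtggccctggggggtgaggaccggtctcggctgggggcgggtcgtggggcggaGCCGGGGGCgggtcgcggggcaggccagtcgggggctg

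RefSeq promoters, from 250 bases before to 50 after a start, were matched to 27 of the 35 measured genes, with 34 promoters. GTTAAT lay in 5 of these promoters (14.7%) and in 7.10% of all 32851 promoters. GCCNNNGGC lay in 13 (38.2%), against 16.6% of all, and AAGGTCA in 1 (2.94%), against 4.72%. The full palindromic HNF1 site was found in none of the 34 and in 3 of all promoters. Genes that were not raised in control 2 by over 1 held matches as well, GCCNNNGGC occurring in the promoters of Gata3, Wnk1 and Kcnj10. In Umod, a further match to GCCNNNGGC reaches past the start and is not shown. A match is a run of letters and was not tested as a binding site.

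Of the genes of the thick ascending limb, Umod, Egf, Slc12a1, Kcnj1 and Kcnj16 were above the dim level. Umod was at 11.34, 11.11 and 11.68 (log2) in knockout and at 11.17, 13.13 and 11.15 in control glomeruli. Control 2 was thus 1.84 above the mean of the other mice, a 3.57-fold higher value, while the other 2 controls lay within the knockout range. The mean was 11.38 ± 0.29 (SD, n = 3) in knockout and 11.82 ± 1.14 in control glomeruli, and the difference of -0.44 had a standard error of 0.65. On a further probe set of Umod control 2 was again the highest, at 12.74, with the other mice between 10.59 and 11.16.

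Slc12a1, which encodes the furosemide-sensitive cotransporter, followed the same pattern. Its values were 7.87, 7.58 and 8.15 in knockout and 7.56, 9.31 and 7.64 in control glomeruli, so that control 2 was the highest array by 1.16. Kcnj1, the gene of the apical potassium channel ROMK, was at 6.24, 6.33 and 6.33 in knockout and 6.27, 8.92 and 6.45 in control glomeruli. Apart from control 2, the 5 mice lay within 0.21 of each other for this gene, and knockout 2 and 3 had identical values. A further probe set of Kcnj1 stayed between 3.41 and 3.78 in these 5 mice and reached 7.32 in control 2.

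Kcnj16 was more variable. It lay at 4.47, 3.88 and 4.55 in knockout and at 3.66, 6.42 and 4.76 in control glomeruli, so that control 1 was the lowest and control 2 the highest. Egf, the epidermal growth factor precursor made by cells of the ascending limb and distal tubule, moved least of the 5. Its values were 11.38, 11.43 and 11.23 in knockout and 10.94, 11.97 and 11.19 in control glomeruli. Control 2 again was the highest, by 0.54, and all 3 knockout mice lay above the other 2 controls. Bsnd, Cldn10, Cldn19 and Irx1 stayed within 0.1 on all arrays at a dim level, and Cldn16, a tight junction gene of magnesium reabsorption, was at 2.39 in 5 mice and at 2.67 in control 2.

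**Figure D1:**
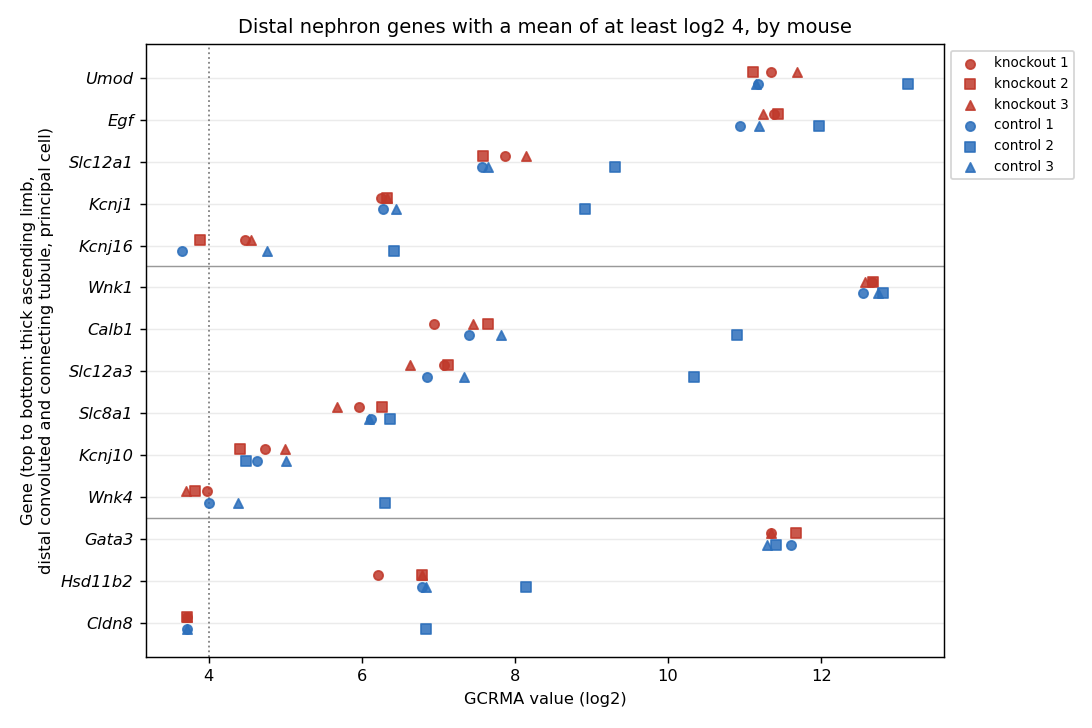
GCRMA value (log2, horizontal axis) of the 14 measured genes with a mean of at least log2 4, 1 row per gene, grouped by segment with horizontal lines between the groups. Each point is 1 mouse, red for knockout and blue for control, and the dotted line marks log2 4. The blue square of control 2 lies to the right of all other points by over 1 for 9 genes, and not for Egf, Wnk1, Slc8a1, Kcnj10 and Gata3.

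In the distal convoluted and connecting tubule, Calb1 and Slc12a3 were far higher in control 2 than in the other mice. Calb1, which encodes the calcium-binding protein calbindin, was at 6.94, 7.64 and 7.45 in knockout and 7.40, 10.90 and 7.81 in control glomeruli. Slc12a3 was at 7.07, 7.12 and 6.63 in knockout and 6.85, 10.34 and 7.33 in control glomeruli. On control 2 these genes were 10.9-fold and 10.1-fold above the mean of the other 5 mice. The other 2 probe sets of Calb1 that varied were dim in 5 mice and were at 4.65 and 5.12 in control 2.

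Wnk4 was at 3.98, 3.82 and 3.71 in knockout and 4.002, 6.30 and 4.38 in control glomeruli. All 3 knockout mice were below all 3 controls, though knockout 1 and control 1 nearly met. Pvalb, which encodes parvalbumin of the early distal convoluted tubule, was dim by its mean. It was at 4.15, 3.80 and 3.51 in knockout and 2.87, 6.42 and 2.38 in control glomeruli, so that the controls lay on both sides of the knockout mice. Trpm6, the gene of a magnesium channel, and Tfap2b, a transcription factor gene, were dim in all mice and had their highest value in control 2, 2.42 against 2.25 for Trpm6 and 2.90 against at most 2.57 for Tfap2b.

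Some genes of this group showed no such departure. Wnk1, a kinase gene transcribed in most tissues, was at 12.66, 12.68 and 12.57 in knockout and 12.54, 12.80 and 12.74 in control glomeruli. Slc8a1, the gene of a sodium-calcium exchanger that heart and other tissues share, ranged from 5.67 to 6.36 over all mice, although a further probe set of it lay between 4.29 and 4.97 in 5 mice and at 6.02 in control 2. Kcnj10, the gene of a basolateral potassium channel, lay at 4.73, 4.41 and 5.002 in knockout and 4.63, 4.48 and 5.004 in control glomeruli, with control 2 the second lowest. Emx1 was within 0.1 on all arrays.

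Among the principal cell genes, Hsd11b2 and Cldn8 departed most in control 2. Hsd11b2 encodes the enzyme that keeps glucocorticoids from the mineralocorticoid receptor. It was at 6.21, 6.79 and 6.79 in knockout and 6.78, 8.15 and 6.83 in control glomeruli. Cldn8, a tight junction gene, was at 3.71 in all 3 knockout mice and in controls 1 and 3, and at 6.84 in control 2. Aqp3, a water channel of the basolateral membrane, was at 3.47 in each knockout mouse and 3.50, 4.54 and 3.65 in the controls.

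The genes most used to name the collecting duct were near the floor. Aqp2, the vasopressin-regulated water channel, was at 2.50, 2.50 and 2.28 in knockout and 2.50, 3.10 and 2.50 in control glomeruli. The 3 subunits of the epithelial sodium channel, Scnn1a, Scnn1b and Scnn1g, had 1 value in the other 5 mice, 2.42, 2.20 and 2.20, and were at 2.73, 2.42 and 2.52 in control 2. Aqp4 and the vasopressin receptor gene Avpr2 varied by less than 0.1. Gata3, a transcription factor gene that mesangial cells of the glomerulus also transcribe, was at 11.34, 11.67 and 11.34 in knockout and 11.61, 11.41 and 11.29 in control glomeruli, with control 2 in the middle of the range.

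None of the 5 measured intercalated cell genes of the list was above the dim level. Atp6v1b1, which encodes a subunit of the proton pump, was at 2.20 in 5 mice and 2.95 in control 2. Slc26a4, the gene of the chloride-bicarbonate exchanger pendrin, was at 2.24 to 2.26 in 5 mice and 3.04 in control 2. Foxi1, Atp6v0a4 and Slc4a1, the gene of the anion exchanger AE1, varied by less than 0.1.

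Control 2 was the highest array for 23 of the 35 measured genes (65.7%), for 12.1% of all probe sets and for 22.9% of those not dim. Of the rest, 10 varied by less than 0.1 over all mice, and Gata3 and Kcnj10 had their highest value in knockout 2 and control 3. In control 2, 10 of the 35 exceeded the highest of the other 5 mice by over 1, or 28.6% against 0.377% of all probe sets, and none did so in any other mouse. All 11 dim genes that varied by more than 0.1 were highest in control 2. Except for Pvalb, Aqp2 and Aqp3, they varied by less than 0.1 among the other 5 mice. They thus counted as varying through control 2 alone, which fixed their highest array in advance. Of 14 genes above the dim level over 6 arrays, Wnk4 and Cldn8 passed that level through control 2 alone. Among the other 12, 7 exceeded the other mice by over 1, against 0.424% of the probe sets chosen in the same way.

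**Figure D2:**
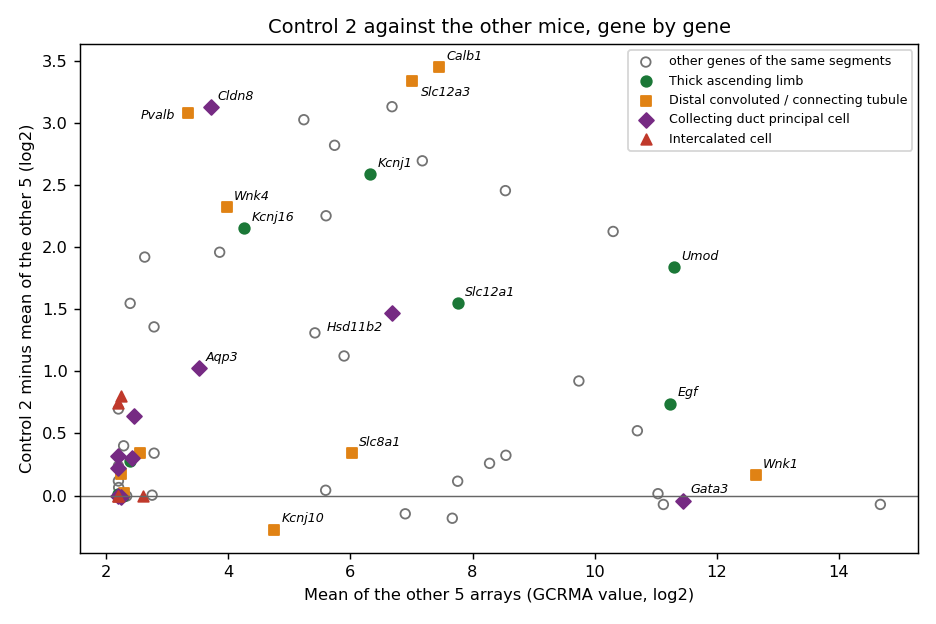
Value in control 2 minus the mean of the other 5 mice (log2, vertical axis) against that mean (GCRMA value, log2, horizontal axis). Filled symbols are the 35 measured genes, coloured by segment, and open circles are the 42 other measured genes of the same segments. Calb1 and Slc12a3 lie highest, at 3.45 and 3.34, and Gata3, Wnk1 and Kcnj10 lie near 0 or below.

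The order of the segments was not settled by these departures. Calb1 was 3.45 above the mean of the other 5 mice and Kcnj1 2.59, but a further probe set of Kcnj1, dim in those mice, was 3.74 above. Cldn8 and Slc26a4 were dim in the other 5 mice, so that their departures have no exact size. Identical values also occurred above the dim level, in knockout 2 and 3 at 6.33 for Kcnj1 and 6.79 for Hsd11b2. Whether these lie at a background level of the probe set was not tested, so the sizes of these departures are uncertain as well. By the median over genes whose mean in the other 5 mice was at least log2 4, the thick ascending limb was at 1.84, with all 5 genes between 0.74 and 2.59. The 2 principal cell genes, Hsd11b2 at 1.47 and Gata3 at -0.04, had a median of 0.71. The 5 genes of the distal convoluted and connecting tubule had a median of 0.34. Of these, Calb1 and Slc12a3 were at 3.45 and 3.34, and Slc8a1, Wnk1 and Kcnj10 at 0.34, 0.16 and -0.27. Slc8a1, Wnk1 and Gata3 are also transcribed outside these segments, so that such medians do not stand for the segment alone. Departures from the other mice were compared here because the levels of different probe sets cannot be set against each other.

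Markers of other cells moved on the same array. Of 17 proximal tubule genes whose mean in the other 5 mice was at least log2 4, 14 were highest in control 2, with a median of 1.26 above the other mice. Of 11 leukocyte genes, 8 were lowest in control 2, with a median of -1.94. The summed level of these leukocyte genes was 14.34 to 15.15 (log2) over the knockout arrays and 14.71, 12.74 and 15.09 over the control arrays. That of the proximal tubule genes was 13.69 to 14.11 over the knockout arrays and 13.88, 14.28 and 13.81 over the control arrays. Most of this sum came from Cyp4b1 on every array, which lay between 13.32 and 13.68, so that it says little of the other proximal tubule genes. The podocyte genes had a median of 0.13 in control 2. Control 3 had the lowest median of proximal tubule genes, -0.93, whereas the 12 distal nephron genes above the dim level in the other 5 mice had a median of -0.19 there. General epithelial genes of the tubule, 4 above the dim level, all exceeded the other mice by over 1 in control 2, with a median of 2.04. The medians of 8 endothelial and 6 mesangial genes, Gata3 among the latter, were 0.04 and -0.07 there, and the single parietal epithelial gene above the dim level was at -0.84. Of 3 macula densa genes, Nos1 and Pappa2 were dim in all mice, and Ptgs2 was lowest in control 2. The part of these shifts in the values of the distal nephron genes was not tested.

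**Figure D3:**
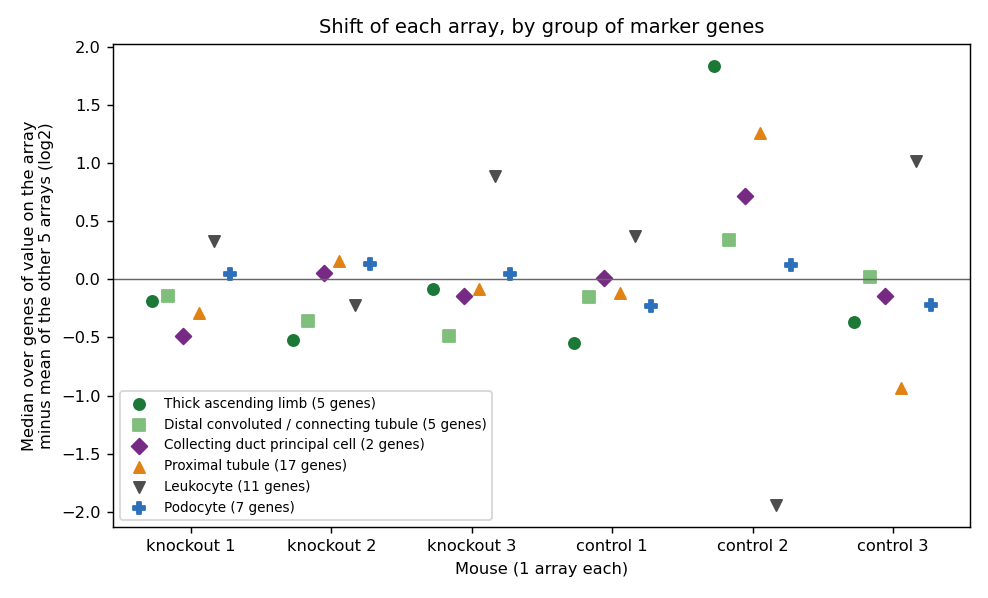
Median over the genes of a group of the value on an array minus the mean of the other 5 arrays (log2, vertical axis), for each mouse (horizontal axis), with the number of genes whose mean outside control 2 was at least log2 4 in the legend. In control 2 the thick ascending limb is at 1.84, the proximal tubule at 1.26, podocyte genes at 0.13 and leukocyte genes at -1.94.

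The genotypes were compared by limma, fitted to all 45101 probe sets. A negative difference (log2) is a lower value in the knockout. Of the 35 measured genes, 24 were lower and 4 higher in knockout glomeruli by more than 0.005, and 7 differed by less. Over all 45101 probe sets, 12119 were lower and 13355 higher, and 19627 differed by less. The median of the 35 genes was -0.09, beside 0 over all probe sets. None of the 35 passed the criterion of a fold over 1.5 and an unadjusted p under 0.05, which 0.18% of all probe sets passed. None passed an adjusted p of 0.05, as did 0.00222% of all probe sets, a single probe set, that of Ddn. At an unadjusted p under 0.05 there was also none of the 35 by limma, where 3.63% of all probe sets were under that value, and the smallest unadjusted p was 0.195, that of Wnk4. SAM, the test named in the methods of the study, counted none past the criterion either.

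The largest differences were those of Calb1 (-1.36, standard error 1.08), Slc12a3 (-1.23, standard error 1.06), Wnk4 (-1.06, standard error 0.69), Cldn8 (-1.04, standard error 1.01) and Kcnj1 (-0.91, standard error 0.82). Their unadjusted p from limma lay between 0.195 and 0.354, and in each of these genes control 2 was far above the other 2 controls. The ranges of the genotypes were separate for Wnk4 and Aqp3, 2 of the 35 genes, or 5.71%, beside 6.32% of all probe sets. Both genes were dim in all 3 knockout mice. With 3 mice against 3, the smallest p of an exact two-sided permutation test is 0.1.

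Without control 2, the differences of Calb1, Slc12a3 and Kcnj1 were smaller than their standard errors. Over the 35 genes the median was 0, and 17 lay within 0.005 of no difference, of which 14 were dim, with 11 below and 7 above. Calb1 was at -0.26 (standard error 0.29), Slc12a3 at -0.15 (standard error 0.26), Kcnj1 at -0.06 (standard error 0.07) and Hsd11b2, at -0.66 with all mice, at -0.21 (standard error 0.24). In 4 of the 5 genes of the thick ascending limb above the dim level the sign changed. Umod went from -0.44 to 0.22 (standard error 0.20), Slc12a1 from -0.30 to 0.26 (standard error 0.20), Egf from -0.02 to 0.28 (standard error 0.11) and Kcnj16 from -0.64 to 0.09 (standard error 0.47). Wnk4 was at -0.36 (standard error 0.17), the lowest of the 35 without this mouse.

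Pvalb was the single gene of the list that passed the criterion without control 2. Its difference was 1.20 (standard error 0.29, unadjusted p = 0.0204 and adjusted p = 0.709 from limma) with 3 knockout mice above the remaining 2 controls, and it was -0.07 (standard error 1.24) with all 6 mice. The probe set was dim in these 2 controls and near the dim level in the knockout mice. Without control 2, 140 probe sets of the whole array passed the criterion in place of 81.

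**Figure D4:**
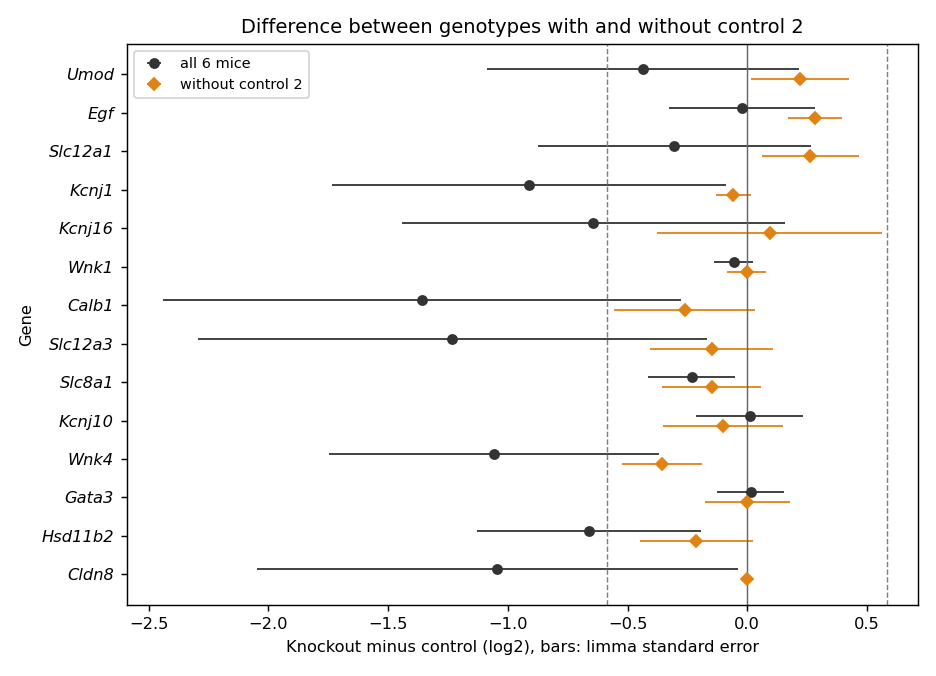
Knockout minus control (log2, horizontal axis) for the 14 genes above the dim level, with all 6 mice (dark circles) and without control 2 (orange diamonds). Bars are limma standard errors and dashed lines mark a fold of 1.5. With all mice Calb1 lies lowest, at -1.36, and without control 2 all 14 lie between -0.36 and 0.28.

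The controls varied more than the knockout mice when control 2 was included. Over the 12 genes with a mean of at least log2 4 in the other 5 mice, the standard deviation had a median of 0.29 among knockout mice and 0.88 among controls, beside 0.091 and 0.12 for all probe sets chosen in the same way. Between controls 1 and 3 it was 0.16. Over the 5 mice other than control 2, the range of these genes had a median of 0.58, and the widest was that of Kcnj16, 1.10.

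A further 44 genes of the same segments were listed to see whether the pattern went beyond the 38, and 42 were measured. They were chosen with earlier results of these data known and measured on the same 6 arrays, so that they are no independent check. In the knockout, 33 of the 42 were lower and 1 was higher, beside 12119 lower and 13355 higher of all 45101 probe sets. The median difference of the 42 was -0.07, and none of them passed the criterion. At an unadjusted p under 0.05 by limma there were 2 of the 42, beside 3.63% of all probe sets and 1593 of the 19619 not dim. The 2 genes of the list were Cul3 (-0.05) and Stc1 (-0.49), both not dim and each with an adjusted p of 1. In control 2, 11 of the 42 exceeded the other mice by over 1, beside 0.377% of all probe sets. Among the 21 that were not dim, 8 did so, beside 0.484% of all probe sets not dim. The 8 included Ppp1r1a, which encodes a protein phosphatase inhibitor (8.26, against 5.06 to 5.46 in the other mice), and Wfdc15b (9.87, against 6.92 to 7.44). Tmem52b (9.81, against 6.44 to 6.92) and S100g, which encodes a calcium-binding protein of the distal tubule (7.85, against 5.23 to 5.70), were also among them. Fxyd2, the gene of a regulatory subunit of the sodium pump, was at 10.99 in control 2 and between 8.38 and 8.87 in the other mice. Of the 12 further intercalated cell genes, 2 were above the dim level, and Slc26a7, an anion exchanger gene, was among them. Whether its signal came from these cells was not tested. It lay at 9.10, 9.42 and 10.01 in knockout and 10.22, 10.66 and 9.97 in control glomeruli. Its difference of -0.77 had a standard error of 0.32 and an adjusted p of 1 from limma. Klk1, the kallikrein gene of the connecting tubule, had the largest difference of the 42 and was named for it after its values were seen. It was at 9.84, 10.14 and 10.16 in knockout and 10.60, 12.43 and 10.76 in control glomeruli, so that the genotypes did not overlap. The same held for Cul3 and Stc1 of this list, for 6.32% of all probe sets and for 2685 of the 19619 that were not dim. The difference of Klk1 was -1.21 (standard error 0.57, adjusted p of 1 from limma), and -0.63 without control 2. Without control 2, the median of the 42 was 0, with 16 below and 13 above.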

How the data were processed

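Glomerular RNA of 3 dendrin knockout and 3 littermate control mice, 13 months old, was hybridized to Affymetrix Mouse Genome arrays, 1 per mouse. The authors deposited log2 values made with GCRMA (version 2.30.0, per the labels), which subtracts background by probe sequence, applies quantile normalization and summarizes probes. Raw intensities were not analysed here. Precision is limited by having 3 arrays in each group and, for dim genes, by the floor of the array. Of 45101 probe sets, 34958 were paired with 1 gene symbol, 932 with several and 9211 with none by the platform annotation.

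Arrays were grouped by their titles. All probe sets were fitted with limma (version 3.58.1, R 4.3.3), lmFit and eBayes, two-sided, without filter or covariate, and p values were adjusted by Benjamini-Hochberg over all probe sets. The methods of the study name SAM, which was an alternative here because at this size its corrected p cannot pass the threshold. The fit had 4 residual and 0.312 prior degrees of freedom. A difference under 0.005 was taken as none. The procedure was tested on simulated data.

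The genes and lists were chosen with earlier results of these data known. Other lists held further genes of the same segments, general tubule, macula densa, juxtaglomerular, proximal tubule, podocyte, endothelial, mesangial, parietal and leukocyte markers. Every gene of the distal list was accounted for, and those with a mean of at least log2 4 were given with values. Of each other list, at most the 3 genes with the largest range among those not dim were to be named, and a gene named beyond that was chosen after its values were seen. Neither of the juxtaglomerular genes was measured. Departures in control 2 used genes with a mean of at least log2 4 in the other 5 mice, a choice made after seeing the data. Alternatives were an intensity trend with a robust prior, SAM, filters at log2 4 and 6 or on a range over 0.1, median centring, quantile normalization again, an offset of 16, a block for the replicate number, weights for arrays, other choices of probe set and the omission of each array.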

Additional observations from a re-analysis of the deposited data

How the results depend on the processing

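No gene of the list passed the criterion under any alternative that kept all 6 mice, and leaving out 1 mouse at a time gave 0 to 1, the 1 being Pvalb without control 2. Probe sets past the criterion, 81 in all, numbered 141 with a filter on a range over 0.1, 106 by SAM and 54 with an offset of 16, and 78 to 140 when 1 mouse was left out. Genes of the list lower in knockout glomeruli were 24 of 35, and 12 of 14 with a filter at log2 4 on probe sets or genes. At log2 6 they were 9 of 10. With log2 4 over the mice other than control 2 (chosen after seeing the data) they were 10 of 12. When 1 mouse was left out, 11 to 27 of 35 were lower. These filters leave fewer genes, and Wnk4 and Cldn8 pass log2 4 over 6 arrays through control 2 alone. The median of -0.09 became -0.54 at log2 4, -0.37 at log2 6 and over the mice other than control 2, and -0.25 with the range filter, and lay between -0.16 and 0 when 1 mouse was left out.

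With array weights the sign turned for Kcnj10 (-0.024), Gata3 (-0.0104) and Egf (0.16), and the cause was not tested. Leaving out 1 mouse at a time turned the sign of Kcnj10 (-0.13 to 0.16), Gata3 (-0.10 to 0.10), Egf (-0.23 to 0.28), Kcnj16 (-1.29 to 0.0934), Slc12a1 (-0.61 to 0.26) and Umod (-0.77 to 0.22).

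Samples with the same replicate number had correlated deviations from their group means of 0.09, 0.35 and 0.25. Each was the highest for its number, but for number 1 the value, 0.0949, barely exceeded the 0.0943 of knockout 3 with control 1. This is a weak hint from the data and not from the design. With the replicate block 64 probe sets and 0 genes of the list passed the criterion. Signals near the array floor limit what the dim genes can show.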
